A study of Mus musculus with 4 samples.

Results

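Of the 919 cells deposited for the injured spinal cord, 183 were astrocytes in which neither Lcn2 nor Timp1 was detected. Both genes are widely used as markers of injury-activated astrocytes, and the question was which other differences from uninjured astrocytes the cells without them carried. Members had more than 500 and fewer than 50000 gene UMIs (unique molecular identifiers, 1 per captured transcript), a filter that 879 injured cells passed. They carried a UMI of at least 2 of 6 astrocyte genes (Aqp4, Slc1a2, Gja1, Aldh1l1, Gjb6, Slc1a3) and none of Cldn5, Pdgfra, Col3a1, Lcn2 and Timp1. At most 1 UMI was allowed over C1qa, C1qb and C1qc, and at most 1 over the ependymal genes Tmem212, Cfap299 and Dnah12. The injured library held 332 cells of this astrocyte gate, 149 of them with Lcn2 or Timp1, and the uninjured library held 3810 gate cells without either gene, among 5078 cells in all. Members were thus selected on their measured UMIs of these genes, so Lcn2, Timp1 and the gate genes are given as a description only.

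All mice were adult Cx30-tdTomato animals, in which tamoxifen-induced Cre under the Cx30 promoter labels astrocytes and any other cell that uses this promoter. Both groups received the same pool of adeno-associated viruses in the blood, with 23 enhancers that each drive a fluorescent reporter and a transcribed barcode. Injured mice then had a contusion of the spinal cord and were sampled at 3 days, while uninjured mice were sampled at the same level. Segments of 5 mm were digested and tdTomato+ cells were sorted, with 1 to 2 animals per sex stated to be pooled in each condition. Each condition is thus 1 library of pooled animals, no test between conditions is possible, and the 95% intervals given below cover counting error only.

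Astrocytes take up glutamate and GABA, buffer potassium and supply lipids to neurons. After injury they become reactive: they build up intermediate filaments such as GFAP and vimentin, secrete acute phase and complement proteins, and lower part of their transport and lipid program. Lipocalin-2 (Lcn2) binds iron-carrying siderophores and TIMP1 inhibits matrix metalloproteinases.

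The members held 778208 gene UMIs, with a median of 3115 per cell, against 1233314 and 5706 in the injured astrocytes with Lcn2 or Timp1 and 14402321 and 3421.5 in the uninjured cells. Mitochondrial transcripts exceeded 20% of UMIs in 40 of the 183 members, 4 of the 149 injured astrocytes with Lcn2 or Timp1 and 175 of the 3810 uninjured cells. By Xist and Y-linked UMIs, 30 members scored as female, 60 as male and 93 as neither, while the uninjured cells held 2 female-scored and 2605 male-scored cells, so that sex and condition could be separated only among male-scored cells. The near absence of female-scored uninjured cells is at odds with the stated pooling of both sexes, and the reason was not tested. The 2 files shared 7 cell barcodes, of which 1 belonged to a member, and no doublets had been removed. The part of depth, mitochondrial share and sex in the results was not tested. Counts of genes past 2-fold and the ratios of most named genes were therefore also computed in male-scored cells and without cells over 20% mitochondrial. The gene lists were recounted only without the latter cells.

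Astrocyte genes that the gate did not use bore out the label. Kcnj10, the inward rectifier potassium channel of astrocytes, stood at 524 UMIs per 1000000 summed gene UMIs (CPM) in the members and 466 in the uninjured cells. It stood at 3.65 in 105 injured cells with at least 5 C1q UMIs and UMIs of fewer than 2 of the 6 astrocyte genes. This microglia-type gate is used here as a guide to the level of free RNA. Its low level of astrocyte RNA was in part fixed by that choice. Hepacam, an astrocyte adhesion protein, was at 490, 510 and 0.61 CPM in the same order. Of the gate's own genes, a UMI of Slc1a2 was found in 176 members, of Aqp4 in 149 and of Gja1 in 133. Markers of other cells were low, in part because the gate required 0 UMIs of Cldn5, Pdgfra and Col3a1 and limited C1q and ependymal UMIs. The C1q gate was in turn picked for its C1q UMIs and for few astrocyte genes. Sums and zeros that hold these genes are thus a description only. The 9 microglia and macrophage genes summed to 34.7 CPM in the members and 23060 in the C1q gate, with C1qc at 0. The 6 neutrophil and monocyte genes summed to 15.4 CPM, with S100a9, Ly6c2 and Plac8 at 0. Endothelial genes summed to 2.57 CPM, mural genes to 32.1, ependymal genes to 19.3 and neuron genes to 92.5 in the members, against 3.47, 45.3, 4.72 and 228 in the uninjured cells, and Cldn5, Pecam1, Slco1a4, Kcnj8 and Mog were at 0 in the members. Oligodendrocyte genes summed to 188 CPM in the members and 266 in the uninjured cells, oligodendrocyte precursor genes to 210 and 404, and fibroblast genes to 136 and 86.4.

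At the border of the rule, 55 injured astrocytes carried exactly 1 UMI of Lcn2 and Timp1 together, with a median of 5035 gene UMIs per cell. Gfap stood at 2755 CPM (2640 to 2874) in the members and 2480 (2321 to 2646) in these cells, and Vim at 826 (764 to 893) and 1218 (1108 to 1336). Members thus sat close to the cells just outside for Gfap and below them for Vim. Absence of both genes also followed depth: when the 145 injured astrocytes with Lcn2 or Timp1 and at least 1000 UMIs were thinned to 1000 UMIs, 81 of them (55.9%, 47.4 to 64.1) kept no UMI of either gene. A cell without these UMIs is therefore not shown to lack the transcripts.

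Most members carried transcripts of genes that mark reactive astrocytes in many kinds of injury. The pan-reactive list of 11 genes does not hold Lcn2 or Timp1. Its summed level in the members was 4679 CPM, of which Gfap made up 2755, and 2 of the 11 genes had 0 UMIs. The list's values in the members thus rest mostly on Gfap and are not a result apart from it. Per cell, the list had a median of 3.02 UMIs per 1000 gene UMIs in the members, with quartiles of 1.60 and 6.44. The median was 7.16 in the injured astrocytes with Lcn2 or Timp1 and 0 in the uninjured cells. Of the members, 146 (79.8%, 73.2 to 85.4) lay above 1.27, the level that 99% of uninjured cells did not exceed, and 4 had no UMI of the list, compared with 2879 of 3810 uninjured cells. The members also differed widely among themselves, from a 5th percentile of 0.61 to a 95th of 13.7, and 42 of them exceeded the median of the cells with Lcn2 or Timp1.

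**Figure D1:**
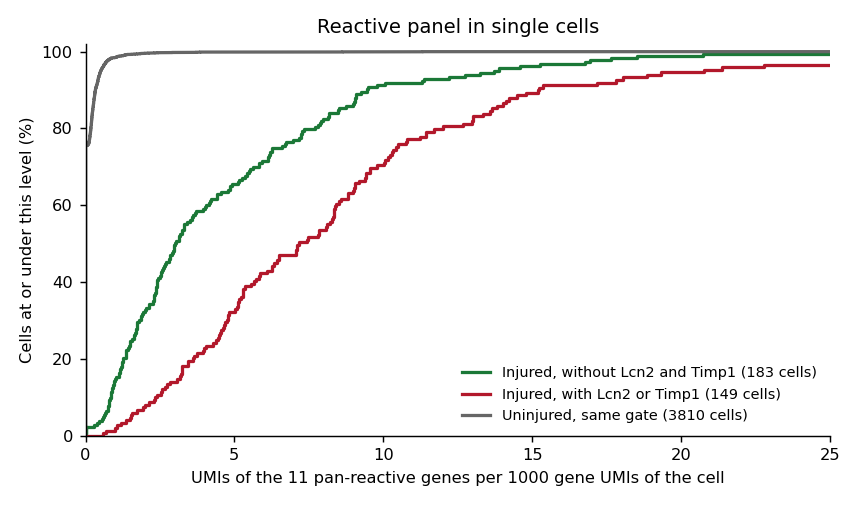
Cumulative share of cells (y axis, percent) at or under a given level of the 11 pan-reactive genes per 1000 gene UMIs of the cell (x axis, cells above 25 not drawn), for the 183 injured astrocytes without Lcn2 and Timp1, the 149 with either gene and the 3810 uninjured gate cells. The curve of the members runs between the others, with medians of 3.02, 7.16 and 0. In the members, Gfap made up 2755 of the list's summed 4679 CPM.

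Across all genes with at least 50 CPM in either group and 10 UMIs over both, 4053 in number, 362 were at least 2-fold higher in the members than in the uninjured cells, which is 8.93%, and 218 were at least 2-fold lower, which is 5.38%. Log2 ratios are given on the scale log2(CPM + 1), on which the median gene differed by -0.06, and intervals are those of the ratio of summed UMIs. In the injured astrocytes with Lcn2 or Timp1, set against the same uninjured cells, 755 of 4281 genes (17.6%) were higher and 456 (10.7%) lower. The 755 include Lcn2 and Timp1, which the selection of these cells fixed, and 753 remain without the rule and gate genes. These comparisons share the uninjured library, so their values are given side by side and no overlap is read from them. Without the cells over 20% mitochondrial, 403 genes were higher and 209 lower in the members. Among male-scored cells of both groups, 328 of 4169 genes were higher and 175 lower in the members.

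Intermediate filament genes were among the most different. Gfap, the defining filament of reactive astrocytes, was at 2755 CPM in the members, 2898 in the cells with Lcn2 or Timp1 and 65.2 in the uninjured cells, a log2 ratio of 5.38 over uninjured (5.29 to 5.51). A Gfap UMI was found in 165 of 183 members, 145 of 149 cells with Lcn2 or Timp1 and 654 of 3810 uninjured cells. At an equal depth of 1000 UMIs these shares became 76.7% (69.7 to 82.8), 84.8% (77.9 to 90.2) and 6.05% (5.31 to 6.86), and 2.04% (0.248 to 7.18) of C1q-gate cells had a Gfap UMI. Without thinning, 22 of 105 C1q-gate cells (20.95%, 13.6 to 30.0) had one, at a median depth of 14502, against 90.2% (84.9 to 94.1) of members at 3115. Gfap was thus a feature of most members and lay far above the level in the C1q gate, which was picked to hold few astrocyte genes. Vim, the vimentin gene, was at 826, 2620 and 6.11 CPM, a log2 ratio of 6.86 over uninjured (6.76 to 7.42), and at equal depth 34.3% (27.2 to 41.9) of members, 60.7% (52.2 to 68.7) of cells with Lcn2 or Timp1 and 0.587% (0.368 to 0.887) of uninjured cells had a UMI. Vim is also used by microglia, at 666 CPM in the C1q gate. Of the 4 filament genes, Gfap and Vim reached the level filter and both were higher, while Nes (nestin) had 29.6 CPM in the members, 126 in the cells with Lcn2 or Timp1 and 0.555 in the uninjured cells.

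**Figure D2:**
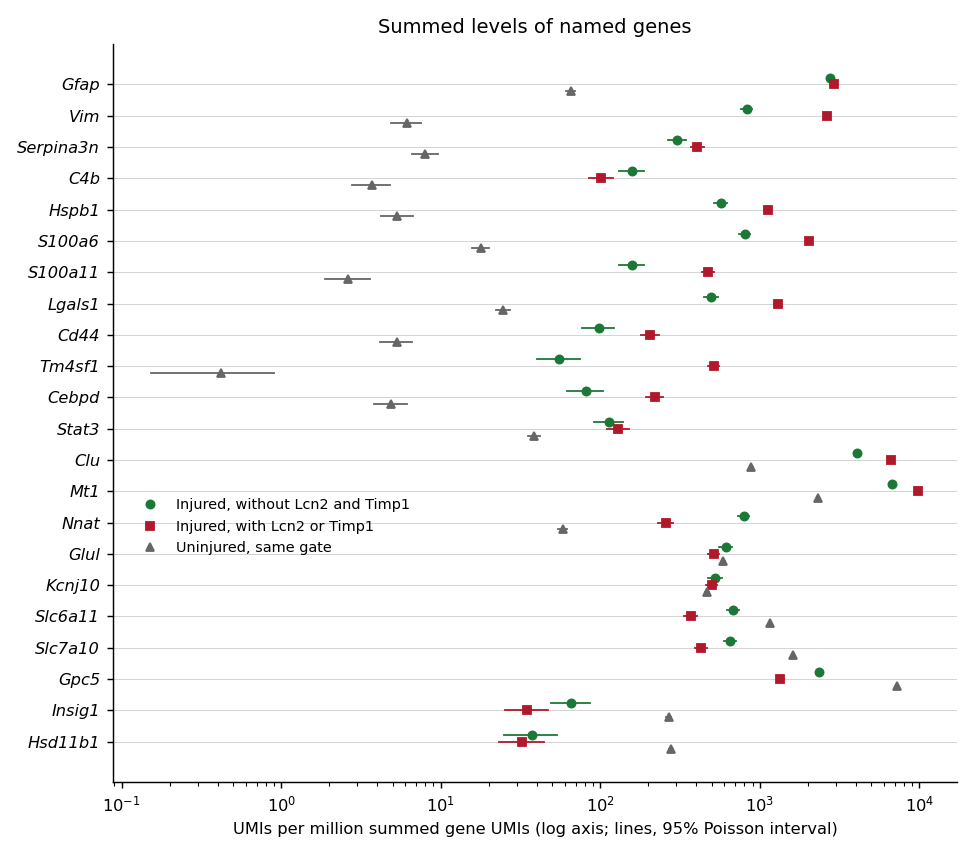
Summed level of 22 named genes in UMIs per 1000000 gene UMIs (x axis, log scale) in injured astrocytes without Lcn2 and Timp1, injured astrocytes with either and uninjured cells of the same gate, with 95% Poisson intervals as lines. From Gfap to Nnat the members lie above the uninjured cells, Glul and Kcnj10 lie together in the 3 groups, and from Slc6a11 to Hsd11b1 the members lie below.

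The 18 members without a Gfap UMI had a median of 1861 gene UMIs against 3527 in the others, and 8 of the 18 exceeded 20% mitochondrial transcripts. Their summed levels were 512 CPM for Hspb1, 256 for Vim and 116 for Serpina3n, against 574, 860 and 316 in the members with Gfap, while Aqp4 was at 302 and 2039 CPM. S100a6 was at 209 and 842 CPM, and the gate genes Slc1a2 and Gja1 were at 1651 and 4246 and at 581 and 1493. Members without Gfap thus had lower summed levels of each of these genes except Hspb1, which was close to the other members. These levels rest on 18 shallow cells, 6 of which held a Vim UMI, and no intervals were computed for them. Over 13 other settings, including male-scored cells and cells with at least 3000 UMIs, the log2 ratio of Gfap over uninjured ran from 5.20 to 5.45, and that of Vim from 5.70 to 6.96.

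Among acute phase and secreted genes, Serpina3n was the 1 of 10 listed genes that reached the level filter, and it was higher. Serpina3n encodes a secreted serine protease inhibitor, and it stood at 305 CPM in the members, 406 in the cells with Lcn2 or Timp1 and 7.98 in the uninjured cells, a log2 ratio of 5.09 (4.93 to 5.59). C4b, a complement component chosen here after its values were seen, stood at 158, 101 and 3.68 CPM, with UMIs in 61 members and 48 uninjured cells. Serpina3n was thus lower and C4b higher in the members than in the cells with Lcn2 or Timp1. C3, the central complement component, reached 27.0, 19.5 and 0.139 CPM, under the level filter. The remaining secreted genes were sparse in the members, with 0 UMIs of Cxcl10, 1 of Ptx3 and 5 of Ccl2.

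The members had 6 pan-reactive genes past the level filter, and all 6 of them were higher than in the uninjured cells. Beside Gfap, Vim and Serpina3n they were Hspb1, a small heat shock protein, Cd44, the hyaluronan receptor, and Aspg, an asparaginase. Hspb1 was at 571 CPM in the members, 1121 in the cells with Lcn2 or Timp1 and 5.35 in the uninjured cells, a log2 ratio of 6.49. Of the 77 uninjured UMIs 53 came from 1 cell, and the log2 ratio was 7.40 without the richest cells. Cd44 was at 97.7, 205 and 5.28 CPM, and Aspg at 56.5, 38.9 and 5.83. Each of these genes was thus well above the uninjured level, and Aspg was the only 1 of the 3 that was not lower in the members than in the cells with Lcn2 or Timp1. Of the neurotoxic-type list, 1 of 11 genes passed the filter, H2-D1, at 100 CPM in the members, 152 in the cells with Lcn2 or Timp1 and 30.6 in the uninjured cells. Of the ischaemia-type list, 3 of 12 passed and were higher: S100a10, Tgm1 and Tm4sf1.

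Tgm1, a transglutaminase that crosslinks proteins, was at 50.1 CPM in the members, 162 in the cells with Lcn2 or Timp1 and 0.0694 in the uninjured cells, where 1 UMI was found. Tm4sf1, a tetraspanin-like membrane protein, was at 55.3, 516 and 0.417 CPM, and its 43 UMIs in the members came from 13 cells. Both genes were near 0 without injury, and the members had them at lower levels than the cells with Lcn2 or Timp1. S100a10, a calcium-binding family member that partners annexin A2, was at 424, 877 and 46.1 CPM.

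Of 15 S100, annexin and galectin genes, 10 passed the filter, 7 were higher in the members and none was lower, with a median log2 ratio of 3.72. S100a6 was at 807 CPM in the members, 2022 in the cells with Lcn2 or Timp1 and 17.8 in the uninjured cells, a log2 ratio of 5.43 (5.29 to 5.72). S100a11 was at 158, 473 and 2.64 CPM, and Lgals1, galectin-1, at 493, 1296 and 24.6. Lgals3, galectin-3, was at 92.5, 257 and 0.139 CPM, but 39 of its 72 UMIs in the members came from 1 cell, and the C1q gate had 869 CPM. The 3 genes of the list within 2-fold were S100a1, S100b and Anxa5, of which S100b, the classical astrocyte S100 protein, was at 644 CPM in the members and 404 in the uninjured cells.

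Promoters of these genes were searched for the letters of the AP-1 motif, TGANTCA, and of the STAT motif, TTCNNNGAA, on both strands of the 250 bases before the start site given by RefSeq on GRCm38.p6. Of 51 listed genes at least 2-fold higher in the members, 42 had a promoter in the table, of which 5 held the AP-1 letters (Anxa2, Hspa5, Ifitm3, Mt2 and S100a11) and 2 the STAT letters (Slc7a11 and Tgm1). Among all 27025 promoters the shares were 6.87% and 7.18%, and among the 288 matched promoters of all genes higher in the members they were 5.21% and 6.25%. Among the 3229 matched promoters of all genes tested they were 4.0% and 5.3%, and among the 174 of genes lower in the members 5.75% and 5.17%. S100a11 and Tgm1 are shown because each is among the 12 genes most elevated over uninjured cells and holds its motif in 2 copies, and Gfap because it is the leading gene and holds neither. Capitals mark the motif letters and all sequences run in the direction of the gene.
S100a11, chr3:93520246-93520495, + strand: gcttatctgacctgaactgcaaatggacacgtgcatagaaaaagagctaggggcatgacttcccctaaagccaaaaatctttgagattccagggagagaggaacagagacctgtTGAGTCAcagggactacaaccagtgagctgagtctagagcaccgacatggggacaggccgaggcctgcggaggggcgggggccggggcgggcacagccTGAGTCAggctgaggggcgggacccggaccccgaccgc
Tgm1, chr14:55713493-55713742, - strand: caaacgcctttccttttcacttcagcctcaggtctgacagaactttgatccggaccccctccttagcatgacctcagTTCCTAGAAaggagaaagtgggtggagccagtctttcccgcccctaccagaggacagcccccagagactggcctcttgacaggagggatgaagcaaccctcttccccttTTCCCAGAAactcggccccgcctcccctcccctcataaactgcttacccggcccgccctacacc
Gfap, chr11:102897201-102897450, - strand: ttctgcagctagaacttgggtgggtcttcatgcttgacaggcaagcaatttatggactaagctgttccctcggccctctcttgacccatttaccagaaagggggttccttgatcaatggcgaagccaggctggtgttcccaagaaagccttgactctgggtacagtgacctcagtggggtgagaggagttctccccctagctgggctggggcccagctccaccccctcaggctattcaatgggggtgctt
In S100a11 the AP-1 letters lie 136 to 130 and 38 to 32 bases before the start, and in Tgm1 the STAT letters lie 173 to 165 and 64 to 56 bases before it. These matches describe the letters only.

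Genes of cytokine signalling and immediate early genes came next. Of 11 gp130 and STAT3 genes, 5 passed the filter and 2 were higher in the members. Stat3, the transcription factor downstream of gp130 cytokine receptors, was at 113 CPM in the members, 130 in the cells with Lcn2 or Timp1 and 38.5 in the uninjured cells, a log2 ratio of 1.53 (1.21 to 1.88). Cebpd, an acute phase transcription factor, was at 81.0, 220 and 4.86 CPM. Stat3 was thus at a similar level in both sets of injured astrocytes, while Cebpd was lower in the members. The receptor genes Il6st and Lifr were at 72.0 and 111 CPM in the members and 37.5 and 127 in the uninjured cells, both within 2-fold. Of 8 AP-1 genes, 3 passed and Fos was higher, at 116, 162 and 15.1 CPM, with 45 of its 90 UMIs in the members from 1 cell. Jun was at 86.1, 201 and 49.6 CPM and Jund at 109, 104 and 70.3.

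Stress and redox genes were higher in the members as groups. Of 12 chaperone and metallothionein genes, 9 passed the filter and 7 were higher, among them Mt1, a metal-binding metallothionein, at 6732 CPM in the members, 9775 in the cells with Lcn2 or Timp1 and 2312 in the uninjured cells. Of 12 antioxidant genes, 8 passed and 7 were higher. Fth1, the ferritin heavy chain, was at 4417, 7319 and 1105 CPM. Slc7a11, the cystine-glutamate exchanger, was the exception in its order, at 148 CPM in the members, 73.0 in the cells with Lcn2 or Timp1 and 61.7 in the uninjured cells. Clu, which encodes the secreted chaperone clusterin, was at 4092, 6611 and 886 CPM, a log2 ratio of 2.21 over uninjured (2.15 to 2.26).

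Of 16 actin and tubulin genes, 12 passed the filter and 9 were higher in the members. Tmsb4x, which binds actin monomers, was at 1991 CPM in the members, 2602 in the cells with Lcn2 or Timp1 and 338 in the uninjured cells. Tagln2, an actin-binding protein, was at 65.5, 145 and 0.486 CPM. Of 83 ribosomal protein genes, 79 passed and 76 were higher, and together they made up 3.93% of UMIs in the members, 6.26% in the cells with Lcn2 or Timp1 and 1.23% in the uninjured cells. In the median cell the share was 2.12%, 5.91% and 1.14%. The C1q gate had 17.2%, and the part of this share in other results was not tested. Mitochondrial genes had a median log2 ratio of 0.79 in the members, with 2 of 13 past 2-fold.

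**Figure D3:**
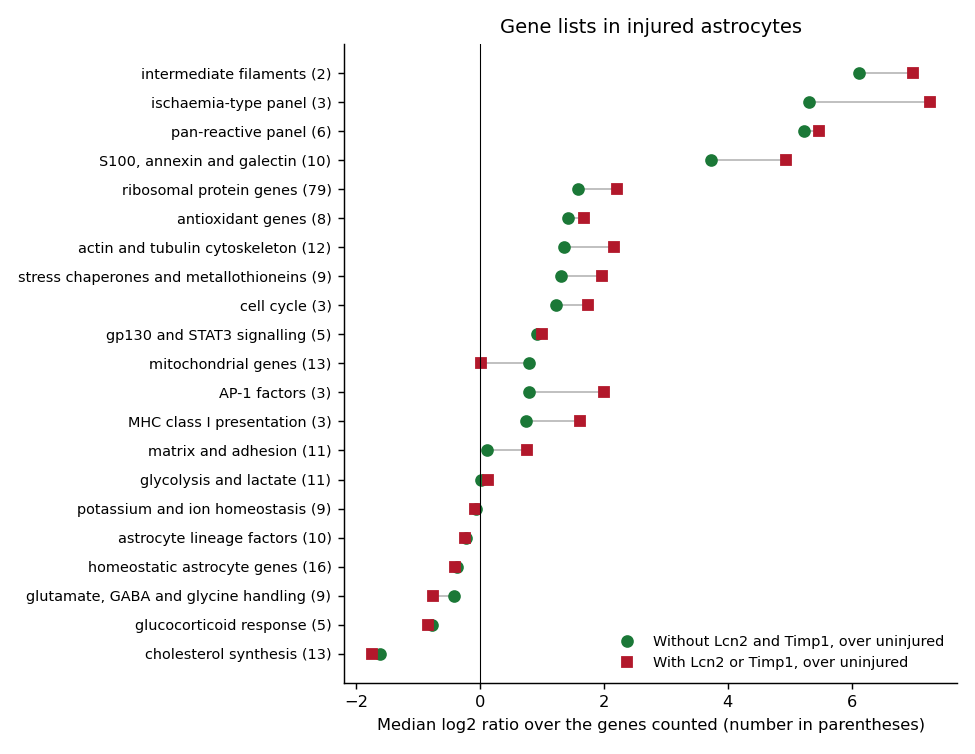
Median log2 ratio over uninjured cells (x axis) of each gene list, for injured astrocytes without Lcn2 and Timp1 (circles) and with either (squares), over the same genes, whose number stands in parentheses after the list's name. Both sets share the uninjured cells, and the lists from intermediate filaments to cell cycle have member medians above 1 while cholesterol synthesis has -1.62 and -1.74.

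Genes for transmitter handling were mostly within 2-fold of the uninjured level. Of 10 genes for glutamate, GABA and glycine handling, 9 passed, 1 was higher (Slc7a11) and 1 lower, with a median log2 ratio of -0.42. Slc7a10, a neutral amino acid exchanger that carries D-serine, was the lower gene, at 648 CPM in the members, 431 in the cells with Lcn2 or Timp1 and 1605 in the uninjured cells. Slc6a11 (GAT-3), an astrocyte GABA transporter, was at 681, 368 and 1159 CPM. For both genes the members stood between the other groups, whereas Slc7a11 and Glul were highest in the members. Glul, glutamine synthetase, was at 612, 513 and 588 CPM, with a log2 ratio over uninjured of 0.06 (-0.08 to 0.19). The gate's glutamate transporter Slc1a2 was at 4103, 3338 and 4664 CPM, a description since the gate used it.

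Of 9 potassium and ion genes, all 9 passed, with Fxyd1, a regulator of the sodium pump, higher (621 CPM in the members, 632 in the cells with Lcn2 or Timp1 and 264 in the uninjured cells) and Kcnk1, a two-pore potassium channel gene, lower (208, 221 and 428). Of 16 homeostatic astrocyte genes, all passed, 3 were higher (Clu, Mt3 and Fabp7) and 2 lower (Gpc5 and Acsl3). Gpc5, a glypican of the astrocyte surface, was the lowest of the list relative to uninjured cells, at 2359 CPM in the members, 1343 in the cells with Lcn2 or Timp1 and 7241 in the uninjured cells. Aldoc, the astrocyte form of aldolase, and Ntsr2, a neurotensin receptor, were at 2492 and 848 CPM in the members, 1470 and 464 in the cells with Lcn2 or Timp1 and 3101 and 1160 in the uninjured cells. For Gpc5, Aldoc and Ntsr2 the members lay between the other groups, while Kcnk1 was lowest in the members and the list's median log2 ratio over uninjured was -0.37 in the members and -0.41 in the cells with Lcn2 or Timp1. Kcnk1 was past 2-fold in 10 of 13 other settings and Acsl3 in 8.

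Cholesterol synthesis was lower throughout. Of 14 genes, 13 passed the filter and all 13 of these were at least 2-fold lower in the members than in the uninjured cells, with a median log2 ratio of -1.62, while in the cells with Lcn2 or Timp1 12 of the 13 were. The list summed to 843 CPM in the members, 865 in the cells with Lcn2 or Timp1 and 2689 in the uninjured cells. Msmo1, a sterol monooxygenase of the pathway, was at 171, 264 and 591 CPM. Insig1, a sterol-regulated protein of the endoplasmic reticulum, was at 65.5, 34.9 and 268 CPM. Set against each other, none of the 9 list genes tested differed by 2-fold between the members and the cells with Lcn2 or Timp1, so that this difference from uninjured cells stood at a similar size whether or not Lcn2 and Timp1 were found. All 13 genes were also lower without the cells over 20% mitochondrial.

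Glucocorticoid-related genes were mixed. Hsd11b1, which regenerates active glucocorticoid, was at 37.3 CPM in the members, 32.4 in the cells with Lcn2 or Timp1 and 278 in the uninjured cells, a log2 ratio of -2.87 (-3.48 to -2.38). At equal depth, 3.49% (1.29 to 7.44) of members and 21.0% (19.7 to 22.3) of uninjured cells had an Hsd11b1 UMI, and without thinning 10.4% and 48.3% did. Cdkn1a, the cell cycle inhibitor p21, was higher, at 114, 118 and 44.9 CPM, and Nr3c1, the glucocorticoid receptor, was at 130, 135 and 242. In all, 5 of 8 genes of the list passed, with 1 higher and 1 lower.

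Most lineage factors and glycolysis genes were within 2-fold. Of 12 astrocyte lineage factors, 10 passed and 2 were higher, Hopx at 266 CPM in the members and 102 in the uninjured cells and Id4 at 208 and 102. Id4, an inhibitor of basic helix-loop-helix factors, had a log2 ratio of 1.02 and was past 2-fold in 8 of 13 other settings, from 0.64 to 1.30. Sox9, the factor that specifies astrocytes, was at 287 CPM in the members, 339 in the cells with Lcn2 or Timp1 and 234 in the uninjured cells. Of 14 matrix and adhesion genes, 11 passed, with Cd44 and the tetraspanin gene Cd9 higher and Bcan, the proteoglycan brevican, lower at 361, 222 and 807 CPM. Of 12 interferon-response genes, 1 passed and was higher, Ifitm3 at 130, 199 and 4.79 CPM, with 37 of its 101 UMIs in the members from 1 cell. Of 10 MHC class I genes, 3 passed and 1, H2-D1, was higher. Of 14 cell cycle genes, 3 passed and 2 were higher, Hmgb2 and Stmn1, past 2-fold in 11 and 10 of 13 other settings. None of 11 glycolysis genes that passed (of 13) was past 2-fold, with a median log2 ratio of 0.01.

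The 12 genes most elevated over uninjured cells were Xist, Vim, Gm49313, Hspb1, Lgals3, Tgm1, Tagln2, S100a11, S100a6, Gfap, Gm15726 and Tm4sf1. Xist, the RNA of the inactive X chromosome, was at 173 CPM in the members and 0.278 in the uninjured cells, with UMIs in 30 members, the cells scored as female by it. Gm49313 had all 121 of its UMIs in 1 member and Gm15726 had 42 UMIs in 6 members, so both values rest on few cells. The lowest genes relative to uninjured cells included 4 haemoglobin genes (Hbb-bs, Hbb-bt, Hba-a1, Hba-a2), whose UMIs in uninjured cells came almost all from 1 cell (2727 of 2743 for Hbb-bs), and A330087D11Rik, Etv4, 9630014M24Rik, Hsd11b1, Gm41492, Mvd and C1qtnf4. Etv4, an ETS transcription factor downstream of growth factor signalling, was at 11.6 CPM in the members, 22.7 in the cells with Lcn2 or Timp1 and 148 in the uninjured cells.

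Of the 362 higher genes, 276 also passed 2-fold when each gene was counted without its richest cell of each group, 343 without cells over 20% mitochondrial and 274 under both. For the 218 lower genes these numbers were 213, 197 and 192. Leaving out the cells over 20% mitochondrial left the list counts above unchanged except for the ischaemia-type list, with 2 genes passing and higher, and the homeostatic list, with 4 higher and 1 lower, and the ribosomal and mitochondrial genes were not recounted. The sorting reporter itself, tdTomato-WPRE, was at 2024 CPM in the members, 2347 in the cells with Lcn2 or Timp1 and 419 in the uninjured cells.

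Set against the 149 injured astrocytes with Lcn2 or Timp1, from the same library, the members had 66 of 4069 genes at least 2-fold higher (1.62%) and 128 lower (3.15%). The 128 include Lcn2 and Timp1, which the split fixed, and without the rule and gate genes 126 of 4061 were lower (3.10%) and 66 higher. Of the 128, 98 stayed past 2-fold without cells over 20% mitochondrial. Past it both there and without the richest cells were 87, with Lcn2 and Timp1 among them. Both sets come from the same pooled animals and differ in depth. The 6 genes lowest in the members were Cxcl10, Ptx3, Layn, Spp1, Tm4sf1 and Vgf. Cxcl10, a chemokine, had 0 UMIs in the members, which allows up to 3.86 CPM by the floor of 3 counts (4.74 as the upper end of the exact 95% interval), and 109 CPM in the other cells, where 5 cells held its 135 UMIs and 1 cell held 126 of them. Ptx3, a secreted pentraxin, was at 1.29 and 55.1 CPM with 34 of the 68 UMIs in 1 cell. Vgf, a neuropeptide precursor, was at 25.7 and 225 CPM with 121 of 278 UMIs in 1 cell. The neuron marker genes also summed to less in the members, at 92.5 CPM against 297, and their part in the Vgf value was not tested. A single cell thus held most of the Cxcl10 UMIs, while Ptx3 and Vgf were past 2-fold in all 13 other settings, with log2 ratios from -6.46 to -2.53 and from -4.87 to -2.09. Layn, the hyaluronan receptor layilin, was at 1.29 and 50.3 CPM and Tm4sf1 at 55.3 and 516. Layn was spread over 28 of the 149 cells with Lcn2 or Timp1 and Tm4sf1 over 62, so these do not rest on a few cells. Spp1, osteopontin, was at 10.3 and 130 CPM but at 8317 in the C1q gate, whose part in the difference was not tested.

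The reactive genes split by degree. The summed level of Gfap was close in both sets, at 2755 and 2898 CPM, a log2 ratio of -0.07 (-0.15 to 0.005). It ran from -0.34 to 0.03 over 13 other settings. At an equal depth of 1000 UMIs the mean was 2.49 Gfap UMIs per member and 3.68 per cell with Lcn2 or Timp1. Vim was lower in the members by 1.66 on the log2 scale (-1.79 to -1.54 as the interval of the ratio). S100a6 had a log2 ratio of -1.32, Lgals1 of -1.39, S100a11 of -1.57, Cebpd of -1.43 and Cd44 of -1.06, which was past 2-fold in 8 of 13 other settings (-1.33 to -0.52). Hspb1 was just within 2-fold at -0.97 but past it in 6 of 13 other settings (-1.32 to -0.84), and Serpina3n was at -0.41. Of the 15 S100, annexin and galectin genes, 12 passed in this comparison, 7 were lower in the members and none was higher, and of the 11 pan-reactive genes 9 passed and 4 were lower (Vim, Cd44, Cp and Cxcl10). The oxidative stress gene Hmox1, haem oxygenase-1, was at 42.4 CPM in the members and 213 in the cells with Lcn2 or Timp1.

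**Figure D4:**
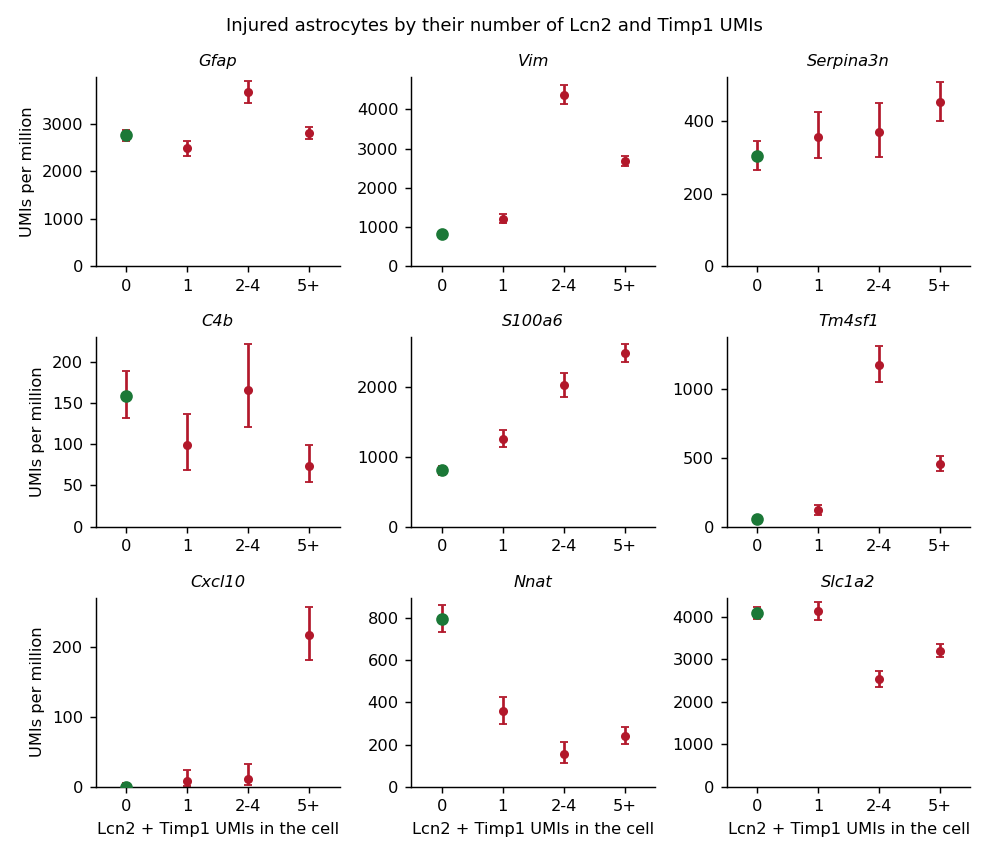
UMIs per 1000000 gene UMIs (y axes, from 0) of 9 genes in injured astrocytes with 0 (the 183 members, in green), 1 (55 cells), 2 to 4 (41 cells) and 5 or more (53 cells) UMIs of Lcn2 and Timp1 together (x axes), with 95% Poisson intervals. Gfap stays between 2480 and 3667 CPM, S100a6 climbs from 807 to 2490, and Nnat drops from 795 to 158 and 240. Cxcl10 is at 217 in the last class, where 1 cell held 126 of its 129 UMIs.

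Across cells with 0, 1, 2 to 4 and 5 or more Lcn2 and Timp1 UMIs, Vim stood at 826, 1218, 4368 and 2682 CPM and Tm4sf1 at 55.3, 117, 1178 and 457. Median depth in these classes was 3115, 5035, 4133 and 10576 UMIs. Vim and Tm4sf1 were thus highest in the class with 2 to 4 UMIs, and the classes were cut on UMI counts, so that depth and class cannot be told apart. Gfap ran at 2755, 2480, 3667 and 2803 CPM with no order.

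The 6 genes highest in the members over the cells with Lcn2 or Timp1 were Gm49313, Fam178b, Gm15726, Gm11639, Tmem267 and Dcaf17, and in each of them 1 cell held a large part of the UMIs. The richest cell held 46 of 46 Fam178b UMIs, 31 of 51 for Gm11639, 68 of 114 for Tmem267 and 315 of 533 for Dcaf17. Dcaf17, found in 23 members, was past 2-fold also without that cell. Of the 66 higher genes, 47 passed 2-fold both without the richest cells and without cells over 20% mitochondrial. Among these, and named after their values were seen, was Nnat, which encodes neuronatin, a small membrane proteolipid of the endoplasmic reticulum, at 795 CPM in the members, 257 in the cells with Lcn2 or Timp1 and 58.0 in the uninjured cells. Nnat UMIs were found in 75 members, its log2 ratio over the cells with Lcn2 or Timp1 was 1.63 (1.43 to 1.83), and it ran from 1.29 to 2.19 over 13 other settings. At an equal depth of 1000 UMIs, 23.8% (17.7 to 30.9) of members, 15.2% (9.76 to 22.1) of cells with Lcn2 or Timp1, 5.04% (4.36 to 5.79) of uninjured cells and 2.04% (0.248 to 7.18) of C1q-gate cells had an Nnat UMI, and without thinning 41.0%, 36.9%, 11.1% and 17.1% did.

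The summed Nnat level was thus higher in the members than in every other group shown, whereas the interval of its share overlapped that of the cells with Lcn2 or Timp1. Other genes of this kind, also named after their values were seen, code for synaptic and secreted proteins. The glutamate receptor genes Grm8 and Gria2 were at 117 and 149 CPM in the members and 34.9 and 47.0 in the cells with Lcn2 or Timp1, while the uninjured cells had 30.6 and 253. Itih3, a chain of the inter-alpha-trypsin inhibitor that binds hyaluronan, was at 412, 121 and 639 CPM. For Gria2 and Itih3 the members stood between the uninjured cells and the cells with Lcn2 or Timp1, whereas Grm8 and Nnat were highest in the members. When ratios were centred on the median gene, 84 genes were higher and 102 lower, compared with 66 and 128 without centring, with Lcn2 and Timp1 among the lower genes in both. Among male-scored cells, 60 and 57 in number, 163 genes were higher and 310 lower.

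Enhancer barcodes were a readout that the rule did not use. Of 23 enhancers, 6 had a barcode UMI in the members: M5 with 67, A1 with 82, A5 with 34, M8 with 14, M24 with 11 and M11 with 3. Barcode M5 was at 86.1 per 1000000 gene UMIs (66.7 to 109) in the members and 92.4 (76.3 to 111) in the cells with Lcn2 or Timp1, a ratio of 0.931 (0.678 to 1.27). A1 was at 105 (83.8 to 131) and 84.3 (68.9 to 102), a ratio of 1.25 (0.924 to 1.69). Neither ratio excluded 1 by its counting interval, so that no difference between the 2 sets of injured astrocytes was detectable at this depth.

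In the 3810 uninjured cells, M5, M8, M24, M11 and A1 had 0 UMIs, which allows up to 0.208 per 1000000, and A5 had 835, at 58.0 per 1000000 (54.1 to 62.1) against 43.7 (30.3 to 61.1) in the members. Against that floor of 3 counts M5 was at least 413-fold higher in the members and A1 at least 506-fold, and the lower ends of the exact 95% intervals of the ratios were 327 and 402. But the C1q gate of the same injured library held the same barcodes at similar rates, with M5 at 79.0 (66.0 to 93.9), A1 at 90.0 (76.1 to 106) and A5 at 32.2 (24.1 to 42.2). The barcode rates of the members did not stand out from those of the C1q gate and are therefore not read as enhancer use by them. Whether the barcodes of the C1q gate are free RNA was not tested. The A5 value was also uneven, with 12 of 34 UMIs in 1 member, and without that cell and the richest uninjured cell the ratio over uninjured went from 0.754 to 0.497.

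**Figure D5:**
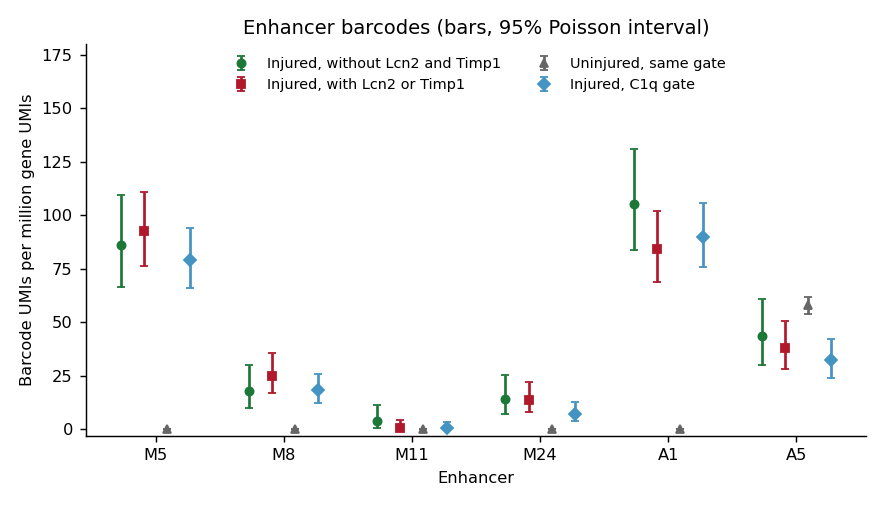
Barcode UMIs per 1000000 gene UMIs (y axis, from 0) of the 6 enhancers found in the members (x axis), in injured astrocytes without Lcn2 and Timp1, injured astrocytes with either, uninjured cells of the same gate and injured cells of the C1q gate, with 95% Poisson intervals. The 3 injured groups overlap for M5, A1 and A5, and the uninjured cells have A5 at 58.0 and the others at 0.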

How the data were processed

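Single tdTomato+ cells from 1 injured and 1 uninjured pool were captured on the 10x Chromium platform, and barcodes were enriched from a share of the cDNA. The authors deposited raw UMI counts per cell for genes and, as antibody capture features, 23 enhancer barcodes named M or A, with cells called beforehand and nothing normalised. The submitters' processing notes give Cell Ranger 8.0.1 and mm10, whereas the file header gives Cell Ranger 7.1.0. Which barcodes are control enhancers was not given in the labels, so none is called so here. UMIs were summed over the cells of each group and divided by the summed gene UMIs (CPM). Genes with at least 50 CPM in 1 of the groups and 10 UMIs over both were compared as log2 ratios with a pseudocount of 1 CPM, and called past 2-fold. Intervals are exact at 95% (Poisson for levels, Clopper-Pearson for shares, conditional binomial for ratios). For equal depth, cells were thinned to 1000 UMIs, leaving out 11 members, 4 cells with Lcn2 or Timp1, 59 uninjured cells and 7 C1q-gate cells. Doublets were left in, since the study's doublet callers are described for its multiome nuclei and no such step was found for these cells. Named genes were, per list, up to 6 with the largest ratios past the filter, the fixed genes Gfap, Vim, Cd44, Serpina3n, Stat3, Sox9 and tdTomato-WPRE, the gate genes, the 12 highest and 12 lowest over uninjured cells and the 6 highest and 6 lowest over cells with Lcn2 or Timp1. Outside this rule, Nes, C3, C4b, Ccl2, Hmox1, S100a1, S100b, Anxa5, Kcnj10, Hepacam, Aldoc and Ntsr2 were named after their values were seen. Cells, lists and named genes were chosen with earlier results of these data known. Python 3.11.15 with numpy 2.4.6, scipy 1.17.1 and pandas 2.3.3 was used, and the comparison was tested on simulated data. Enhancer sequences were not used here, and some genes that the rule names are not reported here.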

Additional observations from a re-analysis of the deposited data

How the results depend on the processing

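No paired analysis was possible because the injured and uninjured cells each came from 1 pool, and no replicate could be left out. The settings on mitochondrial share and on the richest cells were chosen after seeing the data. Of the 75 named genes past 2-fold over uninjured cells, 56 stayed past it in the same direction under all 13 other settings, and 12 of 16 did against the cells with Lcn2 or Timp1. Requiring 100 CPM gave 236 genes higher and 116 lower over uninjured cells and 29 and 76 over the cells with Lcn2 or Timp1, since fewer genes were tested, and no level filter gave 2408 and 1542, and 2058 and 1548. Weighing each cell the same gave 339 genes lower over uninjured cells, and 164 higher and 217 lower over the cells with Lcn2 or Timp1, for which the cause was not tested. Against the latter cells, a pseudocount of 10 CPM gave 41 higher, male-scored cells 163 and 310, and at most 1 myelin UMI 130 and 256. The male-scored and myelin settings left fewer cells, and the cause of their higher counts was not tested. The share of members with a Gfap UMI, 76.7% at 1000 UMIs, was 90.9% at 2000 and 90.2% without thinning, and for Vim 51.4% without thinning. The A5 ratio over uninjured cells was 0.428 without cells over 20% mitochondrial and 0.497 without the richest cells.

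Directions turned for genes with most UMIs in 1 cell and for Xist. Over uninjured cells Gm49313 had log2 ratios of -0.34 at 3000 UMIs or more, -0.62 in male-scored cells, -0.52 under a stricter gate, -0.51 without cells over 20% mitochondrial and -0.35 without the richest cells, and Xist had 0.00 in male-scored cells, a value that the scoring fixed. In male-scored cells, under the stricter gate and without the richest cells, Hbb-bs had 0.81, 0.28 and 0.11 and Hbb-bt 1.52, 1.74 and 0.92, and Hba-a1 had 0.84 without the richest cells. Over the cells with Lcn2 or Timp1, in the order given for Gm49313, Gm49313 had -1.83, -2.14, -2.09, -1.80 and -0.86 and Fam178b -0.89, -1.44, -1.06, -0.87 and 0.00. Depth limited the rare genes: a sum of 0 UMIs in the members allows up to 3.86 CPM by the floor of 3 counts.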
